A study of Mus musculus with 12 samples.

Results

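Mouse gene names that end in "os" (opposite strand) mark a gene annotated on the strand opposite to the gene whose name it carries, so that Junos lies opposite Jun. The count table of the neutrophil libraries holds both genes of 206 such pairs, and in each of them the annotation puts the genes on opposite strands. The members described here, chosen by name and by mean level, are the 67 pairs (134 of 48709 genes) in which at least 1 gene had a mean of at least 10 CPM over the 12 libraries. CPM is the read count of a gene relative to all counts of its library, at a common library size, here scaled with TMM factors (trimmed mean of M values). The pair of Il1bos, a gene of the same naming, was left out by the rule, and 138 pairs stayed under the limit. The pair just inside it was Cep83os and Cep83, where Cep83 had a mean of 11 CPM, and the pair just outside was Pip5k1bos and Pip5k1b, where Pip5k1b had 9.92 CPM.

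All mice were C57BL/6N males, 8 to 10 weeks old, with no altered allele named in the labels or methods. The 3 control libraries are splenic neutrophils of untreated mice. The other libraries are liver neutrophils taken 24 hours (4 libraries) or 72 hours (5 libraries) after 1 intraperitoneal dose of carbon tetrachloride (CCl4, 1 mL/kg in corn oil), a hepatotoxin. Cells were sorted as Ly6G-high, Ly6C-intermediate, CD11b+ and CD45+, and liver tissue was digested with enzymes first. The organ and the injury cannot be told apart in either comparison with control, and both of those comparisons use the same 3 spleen libraries. Nothing in the labels says whether a library is 1 mouse, so p-values measure the spread between libraries.

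Antisense transcripts are transcribed from the strand opposite to another gene and often begin near its promoter or lie within its body. Some act on the transcription, splicing or stability of their partner, while others are by-products of an active locus. Because the transcripts of both strands have complementary sequence where exons overlap, only a strand-aware library and a matching strand setting at counting can assign a read there to the right gene. Library preparation used a stranded kit. The strand setting of the counting is not given in the sources used here. Every level below is therefore the level of a row in the count table, and a gene symbol names that row. If the setting was opposite to the kit, each row holds RNA of the other strand over all of its exon bases, shared or not, so that the Junos row would hold RNA of the Jun strand and the Jun row RNA of the Junos strand. Bulk libraries also cannot separate fewer cells of a type from less RNA per cell.

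Several values bear on that setting. Rows with an exon that shares bases with an exon on the other strand are 16.7% of the annotated rows (8097 of 48349), yet they held 82.3% to 89.3% of the counts of a library. The 25 rows with the highest mean were all of this kind, among them Gtf2ird2 (16521 CPM) and Ptger1 (12201 CPM). Genes annotated as antisense were 5.07% of rows and held 21.1% to 27.8% of counts. Rows of genes that most cells or neutrophils express strongly, with no exon across the strands, were far lower: Eef1a1, a translation elongation factor gene, had a mean of 41.7 CPM, B2m 64.5 CPM and S100a8, a main neutrophil protein gene, 382 CPM. These rows were picked after their values were seen. This is the split that counting on the strand opposite to the kit would give. The setting itself was not tested, so no level or change below, of either kind of row, can be assigned to a strand.

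Gene counts ranged from 1267089 to 3017403 per library, so 1 CPM stood for about 1 to 3 counts. Of the uniquely aligned reads, 2.71% to 3.18% were counted on a gene. Reads ambiguous between genes made up 0.0197% to 0.0368%, except for 0.227% in 24-hour replicate 4. The share of unaligned reads was 1.91% and 1.98% in 72-hour replicates 2 and 3 and 49.6% to 50.7% in the others, so results that use the 72-hour group are also given without those 2 libraries where that changes a call. Spleen replicates 1 and 2 were alike beside replicate 3 (chi-square per gene 2.47 between them, 37.5 and 41.3 to replicate 3). The 72-hour group also fell into 2 sets. Chi-square per gene was 8.47 to 12.9 among replicates 1 to 3, 6.72 between replicates 4 and 5, and 20.7 to 38.1 across the sets. In the 24-hour group replicates 1 and 2 were alike (8.87), and any other 2 replicates differed more (20.1 to 32.9). All 12 neutrophil markers passed the filter on low counts. Their summed level was 1964 to 7925 CPM in the spleen, 1196 to 2912 CPM at 24 hours and 2136 to 2836 CPM at 72 hours. Ly6g, the marker used for sorting, was low, at 1.04 to 37.7 CPM, and none of the 12 markers has an exon that overlaps an exon on the other strand. The 8 hepatocyte markers summed to 2.32 to 6.11 CPM in the spleen, 14.9 to 19.8 CPM at 24 hours and 3.24 to 25.7 CPM at 72 hours. Apoa2 (mean 9.24 CPM) made up most of that sum, 5 of the 8 did not pass the filter and Ttr was at 0 throughout. The 9 macrophage markers summed to 105 to 164 CPM, 140 to 212 CPM and 127 to 194 CPM in the same groups, mostly Csf1r (mean 127 CPM), with Clec4f and C1qa at 0. The 6 B cell markers summed to 50.6 to 64 CPM, 29.7 to 63 CPM and 30.7 to 53.5 CPM, mostly Cd79a (38.6 CPM). The 6 endothelial markers summed to 28.8 to 72.7 CPM, 32.8 to 59.8 CPM and 43 to 66.7 CPM, mostly Clec4g (38.2 CPM), with Kdr and Cdh5 at 0. The 6 T cell and the 6 erythroid markers summed to at most 7.07 and 5.84 CPM in a library. Csf1r, Clec4g, Stab2 and Alas2 do have an exon that overlaps an exon on the other strand. The macrophage and endothelial sums thus rest mostly on rows of that kind. All marker rows carry the same doubt about strand, and their part in the results below was not tested.

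The antisense-named row was the higher one in 40 of 67 pairs by CPM and in 44 of 67 pairs per kilobase of exon. The split followed the layout of the pair. Where the exons of the genes share bases (52 pairs, 6 to 2250 shared bases, median 225.5), the antisense-named row had the higher value per kilobase in 43 pairs, with a median of 38.0 against 2.94 CPM per kilobase for the sense partner. Of the 11 pairs whose gene spans do not overlap, only Brip1os was higher than its partner. In the 4 pairs whose spans overlap without a shared exon base, none was. Since the rule used the mean level of both genes, these counts are a description. They also rest on the strand setting: if it was opposite to the kit, the higher row in those 44 pairs holds RNA of the sense partner's strand.

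**Figure D1:**
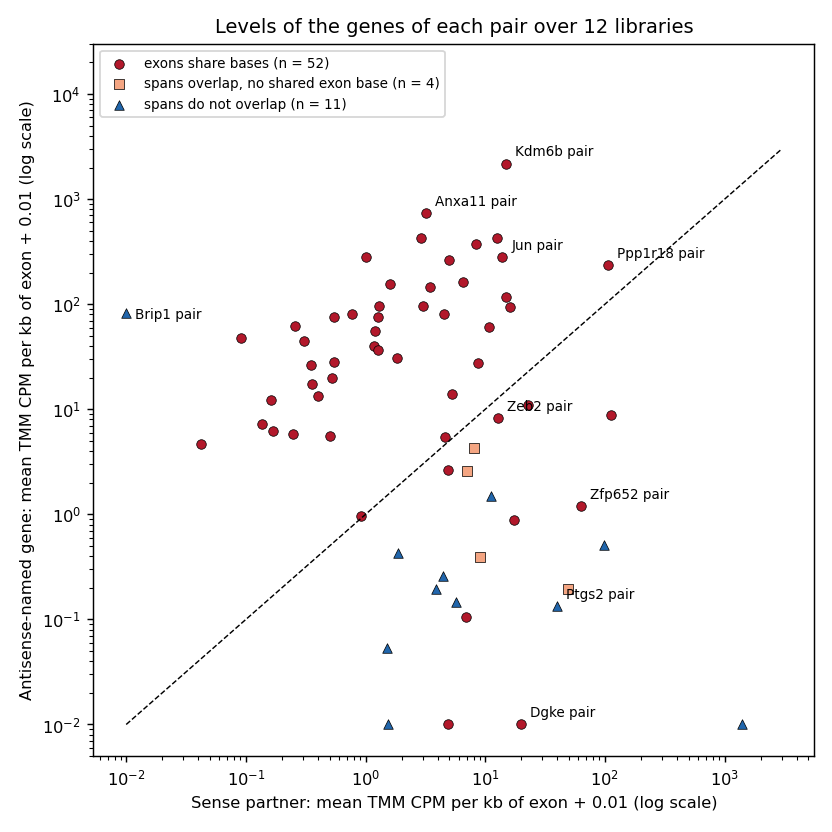
Mean level of the antisense-named gene (vertical axis) against that of its sense partner (horizontal axis) for the 67 pairs, in TMM CPM per kilobase of exon plus 0.01 on log scales; each point is 1 pair, its colour and shape give the layout, and the dashed line marks equal levels. Of the 52 pairs with shared exon bases, 43 lie above the line, against 1 of the 11 pairs without overlapping spans; the names are those of the rows, whose strand is not known.

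The highest antisense-named rows per kilobase were Kdm6bos (2179 CPM per kilobase), opposite the histone H3K27 demethylase gene Kdm6b (14.9), and Anxa11os (739), opposite the gene of the calcium-dependent membrane-binding protein annexin A11 (3.19). The shared bases were a median of 14.8% of the exon bases of the antisense-named gene and 4.33% of those of its partner, and in 30 of the 52 pairs they included protein-coding bases of the partner. By arrangement, 34 pairs were head to head (start next to start), 23 nested and 10 tail to tail. In 25 pairs the annotated starts lay within 1 kb of each other.

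A gene outside the pair can share exon bases with a member as well. Such a gene on the opposite strand lay over 19 sense partners and 13 antisense-named genes. The zinc finger gene Zfp652 (mean 978 CPM) shares 2913 exon bases with Abi3, which encodes an actin regulator and had a mean of 23795 CPM. Ccpg1 (33.4 CPM) shares 2170 bases with Pigb (10849 CPM). H3f3a, which encodes histone H3.3, had 60.8 CPM and shares 638 bases with Gm17275 at 10154 CPM. In each of these a high row faced a much lower one across the strands.

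Sequences show how little a pair can share. The stretches below are exon bases common to both genes, on GRCm38 and in the direction of the antisense-named gene, from 3 of the pairs in which the antisense-to-sense ratio rose at 24 hours. They are coding bases of the sense partner. Aknaos and Akna share 6 bases, shown in capitals at the end of a 30-base window (chr4:63381704-63381733, plus strand). Anxa11os and Anxa11 share 113 bases (chr14:25870069-25870181, minus strand). Dhx58os and Dhx58 share 141 bases (chr11:100697026-100697166, plus strand).
Aknaos: caatgagatggaatgaagcagtacCTCCTG
Anxa11os: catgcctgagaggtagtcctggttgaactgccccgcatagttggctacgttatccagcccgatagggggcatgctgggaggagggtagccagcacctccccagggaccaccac
Dhx58os: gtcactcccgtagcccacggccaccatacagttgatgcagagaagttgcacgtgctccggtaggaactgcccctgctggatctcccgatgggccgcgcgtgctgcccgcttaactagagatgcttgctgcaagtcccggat

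Of the 134 members, 121 passed the filter (over 1 CPM in at least 3 libraries), 58 antisense-named genes and 63 sense partners. The test was the quasi-likelihood test of edgeR over 12488 genes, and calls needed an adjusted p under 0.05 and a log2 fold change of 0.5 or more in either direction. The libraries of the groups compared did not overlap for 32 members at 24 hours (26.4%, background 22.8%), for 11 at 72 hours against control (9.09%, background 12%) and for 19 between the times (15.7%, background 9.51%). Changes relate to the TMM scale, on which the median log2 fold change of all genes tested was -0.23 at 24 hours against control, -0.02 at 72 hours against control and 0.18 at 72 against 24 hours. The TMM factors differed by group: 1.17 to 1.24 in the spleen, 0.74 to 0.86 at 24 hours and 1.03 to 1.14 at 72 hours. Statements that libraries of a group lay above or below others hold on that scale, and small changes depend on it most.

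At 24 hours, 16 members were called (13.2% of those tested), against a background of 9.75% of all genes. Higher (background 5.35%) were 8 antisense-named genes (Anxa11os, Brip1os, Junos, Kdm6bos, Lrrc8dos, Ppp1r18os, Rab10os and Zeb2os) and 5 sense partners (among them Jun, Ppp1r18, Ptgs2 and Zeb2). Lower (background 4.4%) were 3 sense partners (Brd3, Dgke and Plet1) and no antisense-named gene. At an unadjusted p under 0.05 there were 16 of 58 antisense-named genes and 15 of 63 sense partners, with no share over all genes beside them. The median log2 fold change was 0.38 over the antisense-named genes and -0.25 over the sense partners. Members were more abundant than most genes (median 27.7 against 6.17 CPM over all genes tested). Among genes with a mean of at least 10 CPM the background was 16.8%, and 18.2% of the 88 members at that level were called, a share near the background. With upper-quartile scaling the split of called members was 14 higher and 1 lower, in place of 13 and 3. Without spleen replicate 1, 8 members were called, and without spleen replicate 2, 9.

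At 72 hours against control, 6 members were called (4.96%, background 5.33%): Junos, Jun, Ptgs2 and Zfp652 were higher (background 2.63%), and Hopxos and Pnpla1os lower (background 2.71%). Of the 88 members with a mean of at least 10 CPM 6.82% were called, against 9.1% of all such genes. The median log2 fold changes were -0.12 for antisense-named genes and -0.14 for sense partners. Without spleen replicate 3, 10 members were called.

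Between 24 and 72 hours, 12 members were called (9.92%, background 4.49%), 11 of them antisense-named genes. Of these, 9 were lower at 72 hours (background 2.84%: Aknaos, Anxa11os, Brip1os, Junos, Lppos, Lrrc8dos, Pnpla1os, Ppp1r18os and Rab10os) and 2 higher (background 1.65%: Ccdc142os and Rbm3os), and the only sense partner called was Ptgs2, which was higher. Of the 88 members with a mean of at least 10 CPM 12.5% were called, against 9.12% of all such genes. Among all such genes 6.42% were called lower at 72 hours, against 8 of the 45 antisense-named genes at that level. The median log2 fold change was -0.39 over the antisense-named genes and 0.09 over the sense partners. Without the 72-hour libraries that stand apart in unaligned reads, 4 members were called, all antisense-named and lower (Anxa11os, Brip1os, Ppp1r18os and Rab10os). Without 24-hour replicate 1, 4 members were called too, and without 72-hour replicate 3, 7. With upper-quartile scaling the split was 2 higher and 14 lower, in place of 3 and 9.

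**Figure D2:**
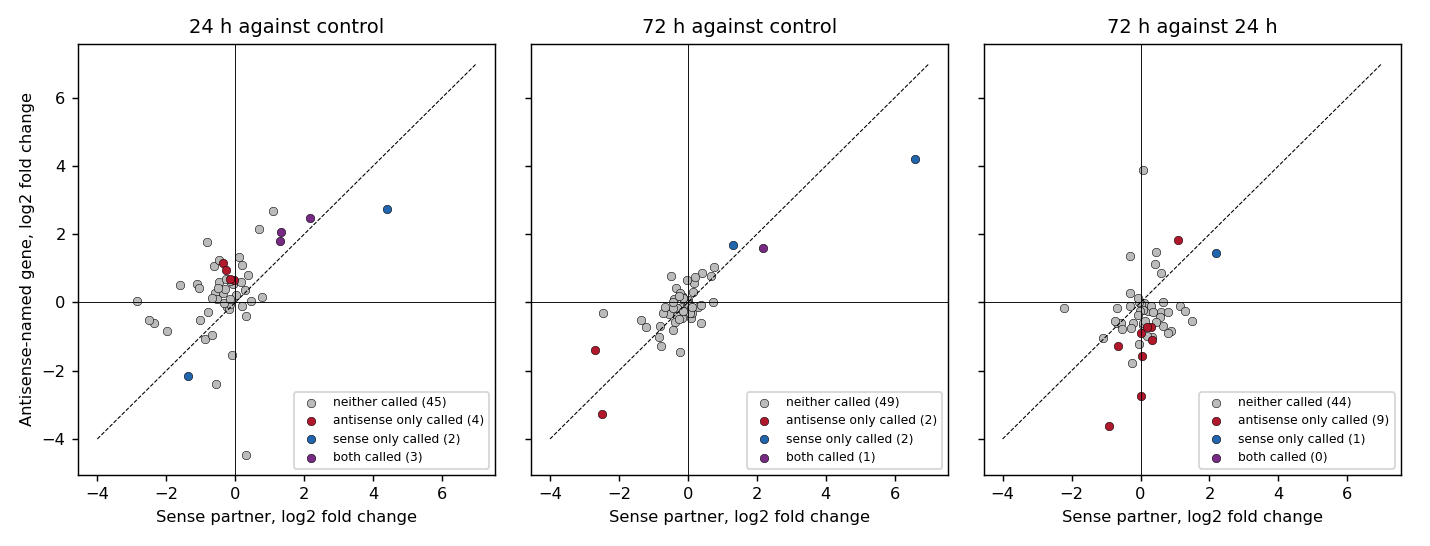
Log2 fold change of the antisense-named gene (vertical axis) against that of its sense partner (horizontal axis) for the 54 pairs with both genes tested, in the 3 comparisons; each point is 1 pair, colours mark which gene was called, and the dashed line marks equal change. In the 72 h against 24 h panel, 9 pairs have only the antisense-named gene called and 1 only the sense gene.

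In 3 pairs both genes were called higher at 24 hours. Jun encodes a subunit of the AP-1 transcription factor, an early response to stress and cytokines. Junos (ENSMUSG00000087366.7, chr4:95051534-95167318, plus strand) starts inside the annotated Jun gene (ENSMUSG00000052684.4, chr4:95049034-95052222, minus strand), and their exons share 232 bases. Junos was at 346, 361 and 325 CPM in the control spleens, 2341, 1681, 1700 and 1970.3 CPM at 24 hours and 1558, 1189, 957, 698 and 806 CPM at 72 hours. Jun was at 13.9, 13.8 and 9.0 CPM in the spleens, 56.1, 69.6, 41.7 and 51.8 CPM at 24 hours and 87.8, 68, 68.4, 26.4 and 23.4 CPM at 72 hours. Every liver library lay above every spleen library for both genes. At 72 hours, replicates 4 and 5 were the lowest of the group for both.

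Junos rose at 24 hours by 2.48 ± 0.26 (log2 fold change ± SE, edgeR adjusted p = 3.34e-06) and at 72 hours by 1.6 ± 0.24 over control (adjusted p = 2.35e-04). Jun rose by 2.17 ± 0.42 (adjusted p = 0.00182) and 2.18 ± 0.40 (adjusted p = 0.00154). From 24 to 72 hours the log2 change was -0.88 ± 0.21 for Junos (adjusted p = 0.0192) and 0.01 ± 0.33 for Jun (adjusted p = 0.992). That later change of Junos was not called without 24-hour replicate 1 (adjusted p = 0.0815), nor without 72-hour replicates 2 and 3 (-0.91 ± 0.25, adjusted p = 0.0607). The ratio of Junos to Jun within a library changed by -0.77 ± 0.28 between those times (limma adjusted p = 0.0642), so a difference between the genes was not called.

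Ppp1r18 encodes phostensin, a subunit that directs protein phosphatase 1 to actin. Ppp1r18os (ENSMUSG00000087443.1, chr17:35860918-35866886, minus strand) and Ppp1r18 (ENSMUSG00000034595.17, chr17:35865593-35875596, plus strand) are head to head and share 70 exon bases. The antisense-named row read 97, 71.4 and 67.8 CPM in control splenic neutrophils, 404, 281, 267 and 354 CPM in 24-hour and 124, 192, 172, 88.9 and 94.7 CPM in 72-hour neutrophils. For Ppp1r18 the values were 218, 225 and 347 CPM, 761, 682, 585 and 612 CPM and 458, 583, 441, 349 and 267 CPM in the same order of groups. On the TMM scale the 24-hour libraries of both genes were above all control and all 72-hour libraries. Without TMM factors Ppp1r18 overlapped the 72-hour group: it held 839 of 1854851 counts in 24-hour replicate 4 and 1688 of 2813970 in 72-hour replicate 2.

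The rise at 24 hours was 2.05 ± 0.29 for Ppp1r18os (log2, edgeR adjusted p = 1.15e-04) and 1.32 ± 0.26 for Ppp1r18 (adjusted p = 0.00208). From 24 to 72 hours Ppp1r18os changed by -1.28 ± 0.24 (adjusted p = 0.00475), while Ppp1r18 changed by -0.65 ± 0.22 (adjusted p = 0.087). Each member has a further neighbour across the strands. Nrm, which encodes a nuclear membrane protein, shares 200 exon bases with Ppp1r18os and averaged 389 ± 109 CPM (SD) in the spleen, 1002 ± 185 at 24 hours and 552 ± 142 at 72 hours. Gm28033, which shares 96 bases with Ppp1r18, averaged 442 ± 70.5, 1912 ± 289 and 752 ± 181 CPM. Both rose at 24 hours, Nrm by 1.37 ± 0.25 (adjusted p = 0.00149) and Gm28033 by 2.11 ± 0.24 (adjusted p = 7.35e-06), so 4 rows of this locus were higher together.

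Zeb2, a zinc finger transcription factor of myeloid cells among others, and Zeb2os (ENSMUSG00000052248.15, chr2:45110707-45114087, plus strand), nested in it (ENSMUSG00000026872.17, chr2:44983632-45117395, minus strand), share 653 exon bases. Zeb2os was at 3.71, 6.16 and 11.6 CPM in the spleens, 25.9, 15, 26.9 and 35 CPM at 24 hours and 8.13, 22.5, 23.2, 12.5 and 6.49 CPM at 72 hours. Zeb2 was at 109, 128 and 197 CPM, 271, 329.9, 456 and 371 CPM and 272, 277, 246, 209 and 215 CPM. On the TMM scale all 24-hour libraries exceeded all control libraries for both genes. At 72 hours, on that scale, the Zeb2os values overlapped those of control and those of Zeb2 did not. Without TMM factors both genes overlapped the spleens at 24 hours. Zeb2 held 613 of 2666718 counts in spleen replicate 3 and 430 of 2017564 in 24-hour replicate 1. Zeb2os held 36 in that spleen library and 25 of 1939223 in 24-hour replicate 2. Zeb2 also overlapped the spleens at 72 hours (332 of 1493236 counts in replicate 5).

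Zeb2os rose at 24 hours by 1.81 ± 0.49 (log2, edgeR adjusted p = 0.0211) and Zeb2 by 1.3 ± 0.25 (adjusted p = 0.00187). The Zeb2os call was lost without spleen replicate 1 (adjusted p = 0.114) or spleen replicate 2 (adjusted p = 0.0937) or 24-hour replicate 4 (adjusted p = 0.0634). Unlike in most pairs that share exon bases, the sense row was the higher one per kilobase (12.9 against 8.25 CPM).

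**Figure D3:**
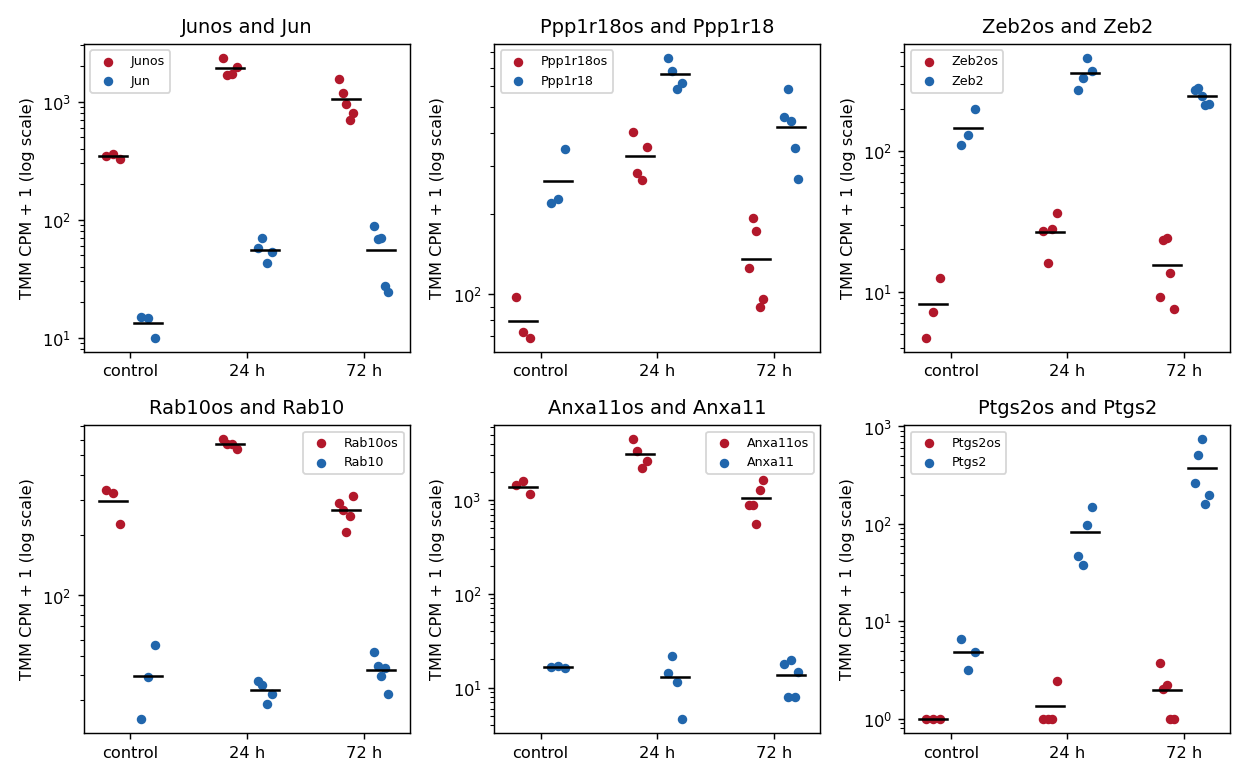
Level in TMM CPM plus 1 (log scale) of the antisense-named gene (red) and its sense partner (blue) in each library, for 6 pairs. Groups are control spleen (3 libraries), liver at 24 h (4 libraries) and liver at 72 h (5 libraries). Points are libraries and bars are group means. Junos and Jun are both higher in every liver library than in control, Rab10os and Anxa11os are highest at 24 h while their partners overlap between groups, and Ptgs2 is lowest in control and highest at 72 h.

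In another set of pairs the antisense-named gene was higher at 24 hours and its partner was not called. Anxa11os (ENSMUSG00000098609.1, chr14:25856777-25870266, minus strand) lies nested in Anxa11 (ENSMUSG00000021866.15, chr14:25842156-25886804, plus strand). Its levels were 1442, 1580.4 and 1157 CPM in the spleens, 4458, 3298, 2173 and 2614 CPM at 24 hours and 892, 880.5, 561, 1289 and 1644 CPM at 72 hours. Those of Anxa11 were 15.8, 15.9 and 15.1 CPM, 13.2, 21, 10.6 and 3.65 CPM and 16.8, 6.91, 18.6, 6.95 and 13.6 CPM. On the TMM scale the 24-hour libraries stood above all others for Anxa11os, while the groups overlapped for Anxa11. Without TMM factors Anxa11os overlapped the spleens: it held 4360 of 2306741 counts in spleen replicate 2 and 3073 of 1781445 in 24-hour replicate 3.

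Anxa11os rose by 1.17 ± 0.30 at 24 hours (log2, edgeR adjusted p = 0.0143) and changed by -1.57 ± 0.26 from 24 to 72 hours (adjusted p = 0.00184). The log2 fold change of Anxa11 at 24 hours was -0.35 ± 0.47 (adjusted p = 0.687). The log2 ratio of Anxa11os to Anxa11 rose by 1.67 ± 0.47 at 24 hours (limma adjusted p = 0.017) and changed by -1.76 ± 0.41 afterwards (adjusted p = 0.00756). The rise of Anxa11os lost its call without spleen replicate 1 (adjusted p = 0.0569) or 24-hour replicate 1 (adjusted p = 0.0565), and that of the ratio without spleen replicate 1 (adjusted p = 0.0603) or 24-hour replicate 4 (adjusted p = 0.0732).

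Rab10 encodes a small GTPase of membrane transport. Rab10os (ENSMUSG00000079179.9, chr12:3235504-3250377, plus strand) meets it tail to tail (ENSMUSG00000020671.8, chr12:3247428-3309969, minus strand), with 143 shared exon bases. Rab10os was at 334, 323 and 226 CPM in control, 602, 572, 567 and 537 CPM at 24 hours and 287, 267, 207, 249 and 313 CPM at 72 hours. Rab10 was at 23.2, 38.1 and 55.3 CPM, 36.6, 34.8, 27.6 and 31.4 CPM and 51.5, 43.5, 38.7, 42.4 and 31.1 CPM. On the TMM scale the 4 values of Rab10os at 24 hours lay within a narrow range above all other libraries. The Rab10 values overlapped throughout. Without TMM factors Rab10os overlapped the spleens: it held 720 of 1744084 counts in spleen replicate 1 and 736 of 1854851 in 24-hour replicate 4.

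Rab10os rose by 0.95 ± 0.22 (log2, edgeR adjusted p = 0.00703) and from 24 to 72 hours changed by -1.11 ± 0.19 (adjusted p = 0.00223). Both calls held with each library left out in turn and without 72-hour replicates 2 and 3. The ratio to Rab10 rose by 1.14 ± 0.36 at 24 hours (limma adjusted p = 0.0323) and then changed by -1.44 ± 0.32 (adjusted p = 0.00516). The ratio's rise was not called without any 1 of spleen replicates 2 and 3 and 24-hour replicates 3 and 4 (adjusted p from 0.059 to 0.21), and without spleen replicate 3 it was 0.67.

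Lrrc8dos (ENSMUSG00000084878.1, chr5:105814773-105818988, minus strand) lies inside Lrrc8d (ENSMUSG00000046079.16, chr5:105699969-105832436, plus strand), the gene of a subunit of volume-regulated anion channels. It had 182, 204 and 251 CPM in the spleens, 334, 325, 368 and 333 CPM at 24 hours and 194, 201, 193, 216 and 220 CPM at 72 hours. Lrrc8d had 42.7, 35.2 and 33.4 CPM, 35.3, 30, 31.8 and 36.5 CPM and 35.8, 42.5, 40.2, 32 and 38.9 CPM. On the TMM scale Lrrc8dos was highest in the 4 libraries of 24 hours, with no such order for Lrrc8d. Without TMM factors they overlapped the spleens: Lrrc8dos held 782 of 2666718 counts in spleen replicate 3 and 530 of 2017564 in 24-hour replicate 1.

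The log2 fold change of Lrrc8dos was 0.68 ± 0.21 at 24 hours (edgeR adjusted p = 0.0392) and -0.73 ± 0.18 from 24 to 72 hours (adjusted p = 0.0212). The first was not called without any 1 of spleen replicates 1 and 2 and 24-hour replicates 1, 2, 3 and 4 (adjusted p from 0.0569 to 0.178). The second was not called without 24-hour replicate 1 (adjusted p = 0.0564) or 72-hour replicate 1 (adjusted p = 0.0532) or 72-hour replicate 3 (adjusted p = 0.0585), nor without 72-hour replicates 2 and 3 together (-0.69 ± 0.21, adjusted p = 0.0947).

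Kdm6bos (ENSMUSG00000085178.1, chr11:69401513-69402700, plus strand), within Kdm6b (ENSMUSG00000018476.7, chr11:69398508-69413675, minus strand), had 1447, 1411 and 1679 CPM in control, 2481, 1999, 2341 and 2701 CPM at 24 hours and 1332, 1471, 1375, 1782 and 1941 CPM at 72 hours. Kdm6b had 118, 101 and 93.9 CPM, 127, 96, 92.6 and 88.3 CPM and 106, 114, 115, 93.8 and 98.6 CPM. On the TMM scale the 24-hour libraries of Kdm6bos were above the other 8. Without TMM factors they overlapped the spleens: Kdm6bos held 5221 of 2666718 counts in spleen replicate 3 and 3934 of 2017564 in 24-hour replicate 1. Its log2 fold change at 24 hours was 0.65 ± 0.20 (edgeR adjusted p = 0.0399), which was not called without any 1 of spleen replicates 1 and 2 and 24-hour replicates 1, 3 and 4 (adjusted p from 0.0641 to 0.153). That of Kdm6b was -0.05 ± 0.23 (adjusted p = 0.924).

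Brip1os (ENSMUSG00000085208.3, chr11:86201370-86304443, plus strand) starts 177 bases from Brip1 (ENSMUSG00000034329.16, chr11:86058138-86201193, minus strand), which encodes a DNA helicase that binds BRCA1 and had no read in any library. Brip1os was at 329, 408 and 543 CPM in control, 959, 605, 586 and 913 CPM at 24 hours and 410.4, 485, 375, 363 and 389 CPM at 72 hours. On the TMM scale its 24-hour libraries were the highest 4 of the 12. Without TMM factors Brip1os overlapped the spleens: it held 1688 of 2666718 counts in spleen replicate 3 and 829 of 1781445 in 24-hour replicate 3. It rose by 0.84 ± 0.24 (log2, edgeR adjusted p = 0.0262) and then changed by -0.92 ± 0.20 (adjusted p = 0.0132). The rise was not called without any 1 of spleen replicates 1 and 2 and 24-hour replicates 1 and 4 (adjusted p from 0.0774 to 0.151), and the later change not without 24-hour replicate 1 (adjusted p = 0.0645). Its exons share 512 bases with Ints2 (mean 31.4 CPM) and 800 with Med13 (30.9 CPM), neither of which was called in any comparison.

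Aknaos (ENSMUSG00000086953.1, chr4:63381358-63394018, plus strand) faces Akna (ENSMUSG00000039158.11, chr4:63367125-63403354, minus strand), which encodes an AT-hook protein. It was at 416, 395 and 435 CPM in control, 843, 501, 478 and 705 CPM at 24 hours and 349.7, 361, 309.5, 436 and 445 CPM at 72 hours. Akna was at 85.4, 87 and 82 CPM, 74.4, 67.2, 56.6 and 43.8 CPM and 65.1, 73.9, 83.9, 63.2 and 90.8 CPM. On the TMM scale the antisense-named row at 24 hours was above, and the sense row below, every control library. Without TMM factors Aknaos overlapped the spleens: it held 1089 of 2306741 counts in spleen replicate 2 and 676 of 1781445 in 24-hour replicate 3.

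Neither gene was called at 24 hours, but their log2 ratio rose by 1.07 ± 0.31 (limma adjusted p = 0.0189) and then changed by -1.03 ± 0.27 (adjusted p = 0.0133). Aknaos itself changed by -0.73 ± 0.20 from 24 to 72 hours (edgeR adjusted p = 0.0379). That call was lost without any 1 of spleen replicate 2 and 24-hour replicates 1 and 4 and 72-hour replicates 1, 2 and 3 (adjusted p from 0.0512 to 0.14), and without 72-hour replicates 2 and 3 together the change was -0.62 ± 0.23, adjusted p = 0.17. The rise of the ratio was not called without spleen replicate 1 (adjusted p = 0.0716) or spleen replicate 2 (adjusted p = 0.0791) or 24-hour replicate 4 (adjusted p = 0.0697). Its fall was not called without 24-hour replicate 4 (adjusted p = 0.0619), nor without 72-hour replicates 2 and 3 (-0.87 ± 0.30, adjusted p = 0.0788).

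In other pairs the sense partner was called and the antisense-named row was at or near 0. Ptgs2 encodes cyclooxygenase 2, the inducible enzyme of prostaglandin synthesis. It had 5.57, 2.17 and 3.86 CPM in the control spleens, 46, 37.2, 96.2 and 149 CPM at 24 hours and 259, 505, 739, 158 and 195 CPM at 72 hours. The 3 groups did not overlap, and the 2 highest values belonged to 72-hour replicates 2 and 3. Ptgs2 rose by 4.41 ± 0.61 at 24 hours (log2, edgeR adjusted p = 8.00e-05), by 6.59 ± 0.64 at 72 hours over control (adjusted p = 1.17e-06) and by 2.19 ± 0.43 between the times (adjusted p = 0.00718). The last change was 1.32 ± 0.37, adjusted p = 0.0686 without those 2 libraries.

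Ptgs2os (ENSMUSG00000097028.2, chr1:150074873-150099963, minus strand) starts 68 bases from Ptgs2 (ENSMUSG00000032487.8, chr1:150100031-150108227, plus strand) and runs away from it. It had no read in the spleens, 0, 0, 0 and 2 counts in the 24-hour and 5, 3, 4, 0 and 0 counts in the 72-hour libraries. With so few counts its own change was not called (adjusted p = 0.353 and 0.203 by edgeR), and no fold is given. The sequence shown is the 180 bases before the annotated start of Ptgs2 (RefSeq, GRCm38.p6, chr1:150099851-150100030, plus strand), with the 67 bases that separate the starts of the pair in capitals. No exon base is shared here, and the reads lie almost all on the Ptgs2 row.
Ptgs2: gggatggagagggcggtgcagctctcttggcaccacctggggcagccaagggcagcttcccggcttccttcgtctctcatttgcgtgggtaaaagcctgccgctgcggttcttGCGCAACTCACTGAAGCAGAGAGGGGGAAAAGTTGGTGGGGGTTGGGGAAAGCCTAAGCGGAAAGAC

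Zfp652 (ENSMUSG00000075595.9, chr11:95712673-95835115, plus strand) had 480.1, 517 and 478 CPM in control, 536, 513, 1694 and 1474 CPM at 24 hours and 1339, 1427, 1753, 747 and 779 CPM at 72 hours, while Zfp652os had at most 5 counts in a library. The 24-hour group fell apart into replicates 1 and 2 near the control level and replicates 3 and 4 about as high as the 72-hour replicates 1 to 3. Zfp652 was called higher at 72 hours (log2 1.3 ± 0.36, edgeR adjusted p = 0.0333), but not without any 1 of spleen replicates 1, 2 and 3 and 72-hour replicates 1, 2 and 3 (adjusted p from 0.0683 to 0.137), nor without 72-hour replicates 2 and 3 together (0.96 ± 0.36, adjusted p = 0.233). Abi3, opposite its exons, averaged 15372 ± 519 CPM (SD) in control, 35494 ± 3189.9 at 24 hours and 19490.5 ± 3810.3 at 72 hours, and was called at 24 hours (log2 1.21 ± 0.19, adjusted p = 2.85e-04).

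Dgke, the gene of diacylglycerol kinase epsilon, was lower at 24 hours. It had 212, 216 and 315 CPM in control, 70.6, 79.8, 177 and 163 CPM at 24 hours and 121, 179.6, 143, 216 and 123 CPM at 72 hours, with Dgkeos at 0 in all 12 libraries. Its log2 fold change was -1.01 ± 0.31 (edgeR adjusted p = 0.039), not called without any 1 of spleen replicates 1, 2 and 3 and 24-hour replicates 1 and 2 (adjusted p from 0.0679 to 0.118). Plet1, which encodes a membrane-anchored surface protein, had 12.5, 11.6 and 37 CPM in control, 6.94, 4.2, 7.78 and 8.02 CPM at 24 hours and 13, 16.9, 9.29, 18.1 and 15.6 CPM at 72 hours. Its log2 fold change of -1.61 ± 0.45 at 24 hours (adjusted p = 0.0258) was not called without spleen replicate 3 (adjusted p = 0.243) or 24-hour replicate 2 (adjusted p = 0.073), and without spleen replicate 3, the highest library, it was -0.84. Plet1os had at most 2 counts. Brd3, a bromodomain gene whose partner Brd3os had at most 8 counts, averaged 22 ± 6.74 CPM (SD) in control, 8.48 ± 4.83 at 24 hours and 12.9 ± 2.95 at 72 hours. Its log2 fold change was -1.36 ± 0.43 at 24 hours (adjusted p = 0.0476) and was not called without any 1 of spleen replicates 1 and 2 and 24-hour replicates 1 and 4 and 72-hour replicates 1, 2, 3 and 5 (adjusted p from 0.0505 to 0.178), nor without 72-hour replicates 2 and 3 together (-1.36 ± 0.44, adjusted p = 0.0522).

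The antisense-named gene lowest at 72 hours relative to control was Pnpla1os (ENSMUSG00000087615.1, chr17:28852055-28859508, minus strand), head to head with Pnpla1 (ENSMUSG00000043286.11, chr17:28858411-28890309, plus strand), a gene of the patatin-like phospholipase family. Pnpla1os was at 67.3, 66 and 11.6 CPM in control, 64.3, 54.6, 7.78 and 7.29 CPM at 24 hours and 1.63, 7.6, 3.1, 6.25 and 6.49 CPM at 72 hours. Pnpla1 had at most 13 counts in a library. Spleen replicates 1 and 2 and 24-hour replicates 1 and 2 were high, and the remaining libraries of these groups were as low as 11.6 CPM or less. The log2 fold change was -3.26 ± 0.63 at 72 hours over control (edgeR adjusted p = 0.00222) and -2.75 ± 0.61 from 24 to 72 hours (adjusted p = 0.0139). The second was not called without 24-hour replicate 1 (adjusted p = 0.0803) or 24-hour replicate 2 (adjusted p = 0.0628), nor without 72-hour replicates 2 and 3 (-2.84 ± 0.77, adjusted p = 0.0609).

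Hopxos, opposite the homeodomain gene Hopx, averaged 74.2 ± 38.4 CPM (SD) in control, 41 ± 18.2 at 24 hours and 28.6 ± 15.1 at 72 hours, with spleen replicate 3 at 29.9 CPM against 98.3 and 94.2 CPM. Its log2 fold change of -1.39 ± 0.40 at 72 hours (edgeR adjusted p = 0.044) was not called without any 1 of spleen replicates 1 and 2 and 24-hour replicates 2 and 4 and 72-hour replicates 1, 2 and 3 (adjusted p from 0.0522 to 0.253), nor without 72-hour replicates 2 and 3 together (-1.13 ± 0.45, adjusted p = 0.272), and the groups overlapped. Lppos, opposite the LIM domain gene Lpp, had 8, 8, 4 and 3 counts at 24 hours and 0, 1, 2, 0 and 0 counts at 72 hours. It was called lower at 72 hours (edgeR adjusted p = 0.0419), but no fold is read from its fitted difference at such counts. The call was lost in all but 1 of the fits that left out 1 library (adjusted p up to 0.106). It was also lost without 72-hour replicates 2 and 3 together (adjusted p = 0.0745).

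Only 2 antisense-named genes were called higher at 72 than at 24 hours. Ccdc142os (ENSMUSG00000087578.1, chr6:83106608-83109054, minus strand), whose partner Ccdc142 had at most 3 counts, was at 49.2, 40.2 and 74.6 CPM in control, 22.1, 26.4, 36.1 and 45.2 CPM at 24 hours and 71, 63.2, 71.8, 58.4 and 64.9 CPM at 72 hours. All 72-hour values were above all 24-hour values, and both ranges met that of control. The log2 change was 1.03 ± 0.26 (edgeR adjusted p = 0.0291), not called without any 1 of 24-hour replicates 1 and 2 and 72-hour replicates 1 and 3 (adjusted p from 0.0611 to 0.102), nor without 72-hour replicates 2 and 3 together (1.0 ± 0.31, adjusted p = 0.0972).

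Rbm3os lies opposite Rbm3, the gene of a cold-induced RNA-binding protein. It had 90, 98.2 and 26.4 CPM in control, 30.9, 19.8, 48.1 and 37.2 CPM at 24 hours and 45.5, 219, 244, 37.5 and 46.1 CPM at 72 hours. The 2 high values at 72 hours are those of replicates 2 and 3, which differ from the other libraries in unaligned reads. The log2 change from 24 to 72 hours of 1.82 ± 0.52 (edgeR adjusted p = 0.0478) was 0.35 ± 0.38, adjusted p = 0.704 without them. Among single libraries, it was not called without any 1 of spleen replicates 1 and 2 and 24-hour replicates 1, 2, 3 and 4 and 72-hour replicates 2 and 3 (adjusted p from 0.054 to 0.147). Rbm3 changed by 1.09 ± 0.34 (adjusted p = 0.0699).

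Whether the genes of a pair changed by different amounts was tested on their log2 ratio within each library (limma, fitted over 3213 opposite-strand pairs with overlapping spans or of this naming, both genes past the filter). Of the 54 member pairs that could be tested, the genes changed in the same direction in 28 at 24 hours, 35 at 72 hours against control and 23 from 24 to 72 hours, by the sign of the fold change alone. At 24 hours the ratio of 6 pairs was called (11.1%, background 16.5%). It rose in Aknaos, Anxa11os, Arhgap15os, Dhx58os and Rab10os and fell in Ptgs2os. At 72 hours against control it was called for 1 pair, Ptgs2os (1.85%, background 2.24%), which fell. From 24 to 72 hours 10 ratios were called (18.5%, background 14.7%), all lower: Aknaos, Anxa11os, Arhgap15os, Far1os, Galnt6os, Lrrc8dos, Man2c1os, Pnpla1os, Ptgs2os and Rab10os. These shares are close to the background of all opposite-strand pairs. Limma without a trend called 3 ratios at 24 hours, with Arhgap15os and Ptgs2os among them and Aknaos, Anxa11os, Dhx58os and Rab10os not. From 24 to 72 hours it called 4 (Arhgap15os, Galnt6os, Man2c1os and Rab10os). At an unadjusted p under 0.05 there were 14, 3 and 21 pairs, with no share over all pairs beside them. Of the 24-hour ratios, 2 were called without spleen replicate 1, 3 without spleen replicate 2 and 3 without 24-hour replicate 4. Of those from 24 to 72 hours, 6 were called without 72-hour replicate 3.

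By sign alone, the ratio was higher at 24 hours than in control in 40 of the 54 pairs (median difference 0.57 on the log2 scale) and lower at 72 than at 24 hours in 43 (median -0.62). The comparisons share the 24-hour libraries. Between 72 hours and control the median was -0.08. These signs have no share over other pairs beside them. Most other pairs were fitted as plus-strand gene over minus-strand gene, which sets no antisense direction. Whether the pattern is particular to these pairs was not tested. Without 72-hour replicates 2 and 3, 3 ratios were called from 24 to 72 hours (Anxa11os, Galnt6os and Rab10os) and none against control (1 at an unadjusted p under 0.05), where Ptgs2os then no longer passed the filter and was not tested.

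**Figure D4:**
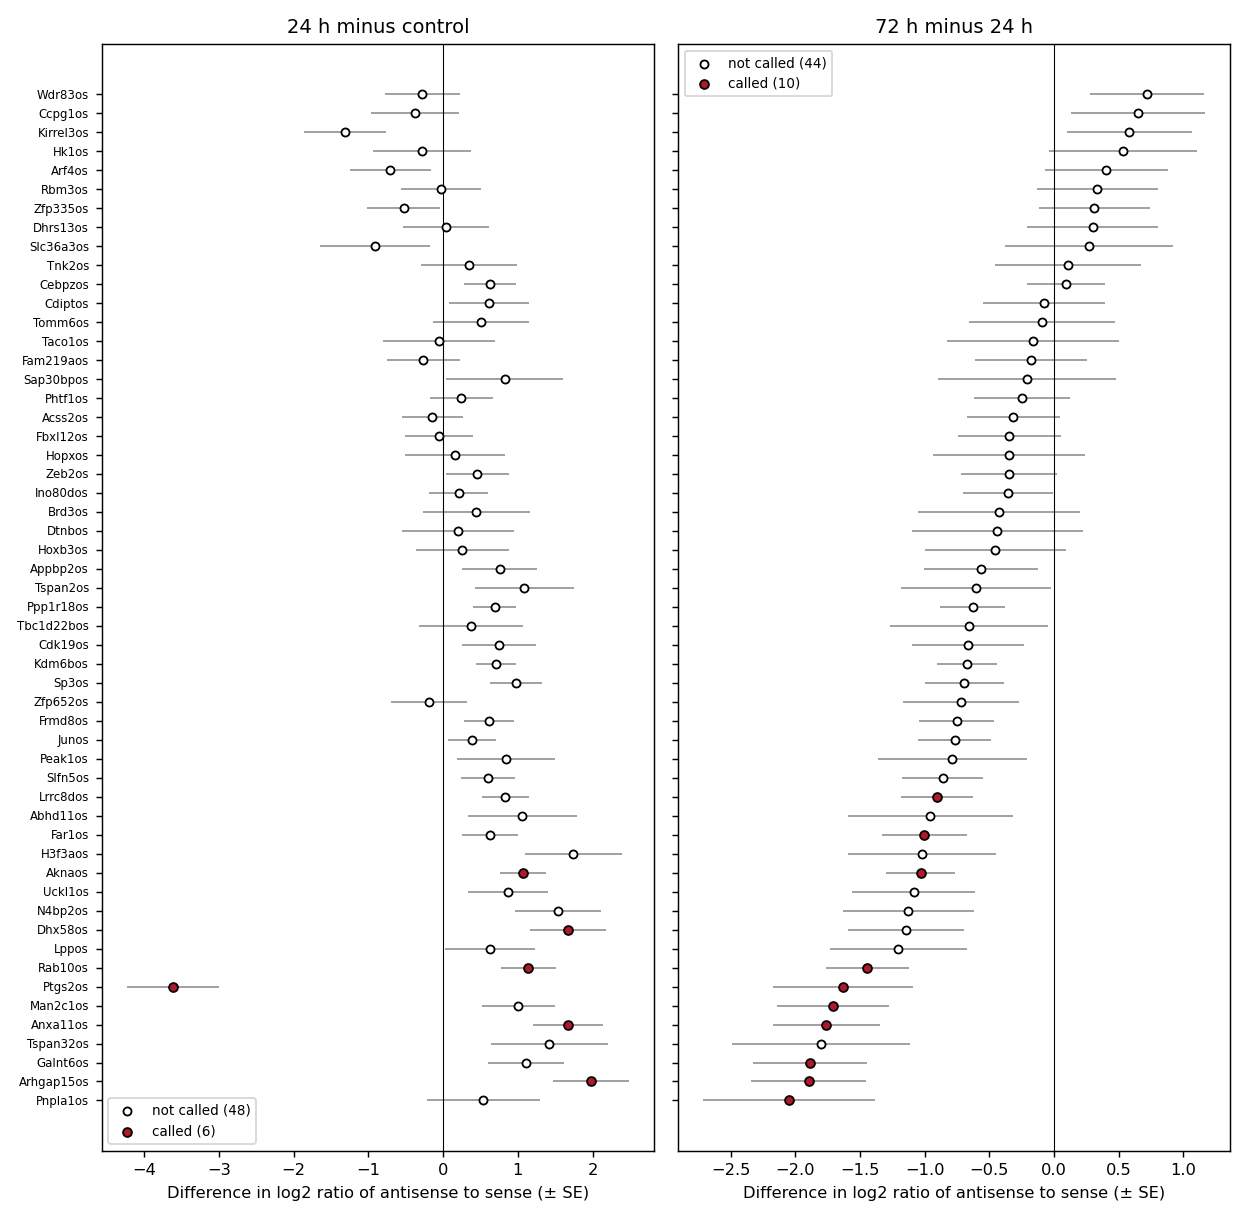
Difference in the log2 ratio of the antisense-named gene to its sense partner, 24 h minus control (left) and 72 h minus 24 h (right), for the 54 tested pairs ordered by the right panel; points are estimates, bars are ± 1 SE, and filled points were called by limma. Most points lie right of 0 on the left (40 pairs) and left of 0 on the right (43 pairs), and the 10 pairs called on the right are all below 0. These signs have no reference from other pairs.

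Several called ratios belonged to pairs in which neither gene was called alone. Arhgap15 encodes a GTPase-activating protein for Rac. Arhgap15os averaged 125 ± 52.5 CPM (SD) in control, 178 ± 19.7 at 24 hours and 101 ± 83 at 72 hours, against 7.64 ± 2.6, 2.48 ± 1.54 and 4.69 ± 2.69 CPM for Arhgap15. The 72-hour values of Arhgap15os were 33.6, 35.6 and 53.2 CPM in replicates 1 to 3 and 203 and 179 CPM in replicates 4 and 5. Arhgap15 had 5, 3, 6 and 1 counts at 24 hours. At so few counts the size of a ratio depends on the prior count of 2, here and for Dhx58, Galnt6 and Man2c1 below. The log2 ratio rose by 1.98 ± 0.51 (limma adjusted p = 0.00974) and then changed by -1.9 ± 0.45 (adjusted p = 0.00756). The rise was not called without spleen replicate 1 (adjusted p = 0.0543), and the fall not without 72-hour replicates 2 and 3 together (-1.54 ± 0.48, adjusted p = 0.0526).

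Dhx58 encodes LGP2, a helicase of the RIG-I-like family of RNA sensors. Dhx58os averaged 223 ± 14.5 CPM (SD) in control, 322 ± 31.1 at 24 hours and 198 ± 49.6 at 72 hours, against 7.35 ± 1.17, 3.49 ± 2.69 and 5.17 ± 3.62 CPM for Dhx58. Its ratio rose by 1.67 ± 0.51 at 24 hours (limma adjusted p = 0.027), not called without any 1 of spleen replicates 1, 2 and 3 and 24-hour replicates 1 and 2 (adjusted p from 0.0561 to 0.08). Dhx58 had only 3, 1, 9 and 7 counts at 24 hours.

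Galnt6 encodes an enzyme that starts mucin-type O-glycosylation. Galnt6os averaged 135 ± 68 CPM (SD) in control, 338 ± 164 at 24 hours and 99.7 ± 87.3 at 72 hours, and Galnt6 5.06 ± 3.76, 5.3 ± 1.85 and 4.6 ± 3.03 CPM. At 24 hours Galnt6os was at 519 and 431 CPM in replicates 1 and 2 and 170 and 233 CPM in replicates 3 and 4. At 72 hours Galnt6os was at 29.3, 74.6 and 16.4 CPM in replicates 1 to 3 and 158 and 221 CPM in replicates 4 and 5. Galnt6 had 9, 9, 4 and 10 counts at 24 hours and 3, 12, 6, 10 and 13 at 72 hours. The ratio changed by -1.89 ± 0.44 from 24 to 72 hours (limma adjusted p = 0.00756), and the call held with each library left out. Leaving out 1 library does not test the split of the 72-hour group into replicates 1 to 3 and 4 and 5. Man2c1os, opposite the gene of a cytosolic alpha-mannosidase, averaged 152 ± 8.03, 183 ± 8.89 and 153 ± 32.2 CPM. Man2c1 averaged 7.65 ± 2.78, 5.11 ± 3.97 and 12.7 ± 2.64 CPM, with 2, 13, 13 and 3 counts at 24 hours. Their ratio changed by -1.71 ± 0.43 (adjusted p = 0.0113), and by -1.59 ± 0.50, adjusted p = 0.0535 without 72-hour replicates 2 and 3.

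Far1os, opposite the fatty acyl-CoA reductase gene Far1, averaged 226 ± 21.7 CPM (SD) in control, 156 ± 23.1 at 24 hours and 129 ± 48.3 at 72 hours, and Far1 38.3 ± 2.06, 18.6 ± 9.18 and 28.5 ± 11.9 CPM. The ratio changed by -1.0 ± 0.33 from 24 to 72 hours (limma adjusted p = 0.0401). The call was lost without any 1 of spleen replicate 2 and 24-hour replicates 2 and 3 and 72-hour replicates 1, 2, 3, 4 and 5 (adjusted p from 0.0513 to 0.146), and without 72-hour replicates 2 and 3 together (-1.0 ± 0.38, adjusted p = 0.105).

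The ratios of Lrrc8dos and Pnpla1os also fell from 24 to 72 hours, by 0.90 ± 0.28 (limma adjusted p = 0.032) and 2.05 ± 0.66 (adjusted p = 0.0388) on the log2 scale. The Lrrc8dos ratio was not called without any 1 of 24-hour replicates 2, 3 and 4 and 72-hour replicates 1, 2 and 3 (adjusted p from 0.0508 to 0.0695), and the Pnpla1os ratio not without any 1 of 24-hour replicates 1 and 2 and 72-hour replicates 1, 3 and 4 (adjusted p from 0.0658 to 0.158). Neither was called without 72-hour replicates 2 and 3 together (adjusted p = 0.133 and 0.0801). Pnpla1 had 0, 2, 1 and 0 counts at 24 hours and 0, 2, 0, 3 and 0 at 72 hours. The Pnpla1os ratio therefore follows the Pnpla1os row, and its size depends on the prior count of 2. For Ptgs2os the counts were at most 5 in a library, so its ratio follows the Ptgs2 row. Its fall from 24 to 72 hours was not called without any 1 of 24-hour replicates 1, 2 and 4 and 72-hour replicates 2, 3, 4 and 5 (adjusted p from 0.0619 to 0.115).

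Of the 138 pairs under the limit, 25 antisense-named genes and 24 sense partners passed the filter. At 24 hours 3 of these antisense-named genes and 1 sense partner were lower, at 72 hours against control 2 and 3 were lower, and none was called higher in either comparison. From 24 to 72 hours none was called by edgeR (2 antisense-named genes and 3 sense partners at an unadjusted p under 0.05).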

How the data were processed

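RNA of sorted neutrophils was sequenced with a stranded kit. There were 3 libraries of control spleen, 4 of liver at 24 hours and 5 of liver at 72 hours after CCl4. The authors aligned the reads to GRCm38 (STAR 2.7.9a in the submitters' processing notes) and used HTSeq-count to obtain raw counts of reads for each gene, which were deposited unnormalized in 1 table for the 12 libraries. The strand option of the counting is not given in the sources used here. The table holds 48709 genes, of which 48349 were matched by Ensembl identifier to the GENCODE annotation of GRCm38, and 5 summary rows, which were kept out of library sizes and tests. Every count column was mapped to a sample by name.

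Genes with over 1 CPM in at least 3 libraries (12488) were scaled by TMM and tested with edgeR 4.0.16 (quasi-likelihood, R 4.3.3) with all libraries fitted together and p-values adjusted by Benjamini-Hochberg over all genes. Ratios within pairs were tested with limma 3.58.1 (trend) on log2 CPM with a prior count of 2, over 3213 opposite-strand pairs. Ratios use the counts as deposited, with no correction for shared bases. Levels per kilobase divide CPM by the merged exon length.

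The members and lists were chosen with earlier results of these data known. Pairs with a called gene (up to 15, by smallest adjusted p) and the 5 pairs with the most counts are given by library, pairs with a called ratio are named, and genes outside the pairs are named where an exon overlaps a member. The named values of 1 pair that the rule picked are not reported here. Values by library for Rbm3os, Lppos, Hopxos, Arhgap15os and Galnt6os were added after they were seen. So were the counts of Arhgap15, Dhx58, Galnt6 and Man2c1. Alternatives were other scalings (DESeq2 1.42.0 size factors, upper quartile), tests (DESeq2, limma-voom), filters, fold and level limits, prior counts, a replicate block, fits without the 72-hour libraries that stand apart in unaligned reads, and each library left out. The tests were tried on simulated counts first. Same-numbered libraries of different groups did not deviate together (10 pairs, correlations from -0.12 to 0.13, 1 over 0.1). The numbers were therefore not taken as pairs. Some libraries of different groups did deviate alike. Spleen replicates 1 and 2 correlated at 0.094 to 0.115 with 24-hour replicates 1 and 2 and at -0.083 to -0.111 with replicates 3 and 4. Spleen replicate 3 went the other way, at -0.15 and -0.14 with 24-hour replicates 1 and 2 and 0.13 and 0.16 with 3 and 4. What these libraries share was not tested.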

Additional observations from a re-analysis of the deposited data

Results flagged for a closer look

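There were 12 members that differed between 24 and 72 hours in their change against the shared control spleens, by edgeR's test of 72 against 24 hours over 12488 genes. The log2 differences were -0.73 for Aknaos, -1.57 for Anxa11os, -0.92 for Brip1os, -0.88 for Junos, -0.73 for Lrrc8dos, -2.75 for Pnpla1os, -1.28 for Ppp1r18os and -1.11 for Rab10os, all lower at 72 hours. Higher at 72 hours were Ccdc142os (1.03), Rbm3os (1.82) and Ptgs2 (2.19). For Lppos the fitted difference was -3.61, at 8 counts or fewer in every library, where it depends on the prior count and is read as no fold. Of these 12 genes, 11 are antisense-named.

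In 4 of 90 groups examined (4.44%), 1 library lay far from the rest of its group, where chance gives about 1 in 20. They were Ptgs2os in 24-hour replicate 4 (1.46 CPM, the others at 0), Hopx in 72-hour replicate 2 (0.691 CPM, the others at 0), Lpp in 72-hour replicate 3 (10.5 CPM, the lowest of its group) and Rbm3 in 24-hour replicate 1 (6.31 CPM, the lowest of its group). The Ptgs2os and Hopx values rest on 2 counts each.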

How the results depend on the processing

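No called member and no called ratio changed direction under any alternative that gave a value. Without the 72-hour libraries that stand apart in unaligned reads, 4 members (12 with all libraries) and 3 ratios (10) were called from 24 to 72 hours, and 0 ratios (1) at 72 hours against control, where the Ptgs2os pair no longer passed the filter. Limma without a trend called 3 ratios at 24 hours and 4 from 24 to 72 hours. With the replicate block, 12 members were called at 72 hours against control in place of 6, while Kdm6bos, Lrrc8dos and Brd3 at 24 hours, Lppos from 24 to 72 hours, the Aknaos ratio at 24 hours and the ratios of Far1os, Lrrc8dos and Ptgs2os from 24 to 72 hours were no longer called. The replicate numbers are only numbers here, and nothing shows that they pair the libraries. Leaving out 1 library at a time gave 8 to 18 members at 24 hours, 4 to 10 at 72 hours against control and 4 to 17 from 24 to 72 hours, and for the ratios 2 to 8, 1 to 1 and 6 to 11. The other scalings, tests, filters, limits and prior counts kept these counts within 1.5 times. The cause of these differences was not tested. Upper-quartile scaling moved the split of all called genes from 668 higher and 550 lower to 799 and 465 at 24 hours, and from 206 and 355 to 157 and 457 between the times. Depth limits the pairs with rows near 0, where 1 CPM is 1 to 3 counts, and intervals of counts would cover counting error only.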
